A study of Mus musculus with 4 samples.

Results

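The spots described here carried many transcripts of reactive astrocytes in the olfactory bulb and few enough transcripts of lipid- and debris-laden phagocytes to fall outside the most phagocyte-rich places. They were 205 of the 2239 spots with at least 500 unique molecular identifiers (UMIs) in libraries 3 and 4, with 112 in library 3 and 93 in library 4, and of 4616 such spots in the whole data set. A spot was chosen when its summed UMIs of Gfap, Lcn2, C3 and Car9, divided by its total, lay in the top 15% of its library. It was then left out when its summed UMIs of Lyz2, Gpnmb, Spp1, Itgax, Lgals3 and Mmp12, divided by its total, lay in the top 10%. The chosen spots are called reactive astrocyte spots below, a name for the rule and not for a cell, since a spot captures RNA from whatever cells lie above it, often of more than 1 type.

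Astrocytes are the glia that take up glutamate and potassium, hold the water channel of the vessel wall and feed neurons with lactate. After injury they swell, lay down intermediate filament and switch on genes of the acute phase response, many of them through interleukin-6 family cytokines and the transcription factor STAT3, a state called reactive. Lcn2 and C3 are markers of an inflammatory form of that state, and phagocytes that clear lipid and dead cells often lie beside such astrocytes.

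The study set the olfactory bulb of 1 control mouse beside that of 1 mutant mouse at 5 months of age. In the mutant mouse VEGF was blocked at E13.5 by a transgenic soluble form of VEGFR1, expressed in a brain-specific, tetracycline-regulated way from the Camk2a-tTA driver. The labels give the text on the transgene for every sample, and do not say which of its alleles the control mouse carried. Fresh-frozen coronal slices of 10 micrometres were placed on Visium capture areas, 3 sections of the control mouse on 2 areas and 4 sections of the mutant mouse on 2 areas.

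The deposited matrix pools the 4 capture areas, and the numbers 1 to 4 at the end of the spot barcodes match no label. Libraries are therefore given by number, control and mutant were not compared, and libraries are not replicates of a condition. Each value below is a sum over the spots of 1 library in counts per 1000000 UMIs (CPM), with no p-value. Intervals are exact 95% intervals that cover counting error only. Libraries 3 and 4 were treated separately, and a gene is called higher or lower only where its ratio was past 2-fold the same way in both. Reactive astrocyte spots had a median of 10888.5 UMIs in library 3 and 10260 in library 4, against 8781 and 9698.5 in the other spots defined below. Mitochondrial transcripts were 7.16% and 8.14% of their UMIs, against 7.49% and 7.43%. Libraries 3 and 4 share 182 barcodes among kept spots, 2 of them among reactive astrocyte spots. A barcode names a position on the array, so these are not shared cells.

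Other spots are those in neither the reactive astrocyte set nor the top 10% by the 6 phagocyte genes, 1054 in library 3 and 756 in library 4. Phagocyte-rich spots are that top 10%, 130 and 94 spots. Homeostatic astrocyte spots are the 112 and 83 remaining spots in the top 15% by Slc1a2, Slc1a3, Aldoc, Aqp4 and Gja1. The same rule applied to libraries 1 and 2 gave 233 and 98 spots.

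The 4 genes that chose the spots have different roles. Gfap is the intermediate filament of astrocytes, Lcn2 encodes lipocalin 2, a secreted binder of iron-carrying siderophores, C3 is the central complement component, and Car9 is a carbonic anhydrase of the cell surface that is a standard target of hypoxia-inducible factor. Their promoters are shown because these genes define the spots and because each has textbook links to inducible transcription factors. Each window runs from 250 bases before to 50 bases after the RefSeq gene start in GRCm38.p6, 5′ to 3′ on the strand of the gene, with motif matches in capitals.
Gfap, chr11:102897151-102897450, minus strand: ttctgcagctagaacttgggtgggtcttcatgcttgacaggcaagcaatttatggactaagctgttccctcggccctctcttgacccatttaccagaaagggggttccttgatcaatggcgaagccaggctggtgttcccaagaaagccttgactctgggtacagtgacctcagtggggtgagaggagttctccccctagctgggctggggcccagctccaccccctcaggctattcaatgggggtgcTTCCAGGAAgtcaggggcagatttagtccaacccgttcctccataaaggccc
Lcn2, chr2:32387690-32387989, minus strand: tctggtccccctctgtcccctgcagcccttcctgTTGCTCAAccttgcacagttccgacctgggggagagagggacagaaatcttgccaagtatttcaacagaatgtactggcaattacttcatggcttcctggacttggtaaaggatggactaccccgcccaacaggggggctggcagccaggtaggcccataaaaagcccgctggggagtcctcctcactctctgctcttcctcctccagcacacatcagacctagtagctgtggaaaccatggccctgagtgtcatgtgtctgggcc
C3, chr17:57228087-57228386, minus strand: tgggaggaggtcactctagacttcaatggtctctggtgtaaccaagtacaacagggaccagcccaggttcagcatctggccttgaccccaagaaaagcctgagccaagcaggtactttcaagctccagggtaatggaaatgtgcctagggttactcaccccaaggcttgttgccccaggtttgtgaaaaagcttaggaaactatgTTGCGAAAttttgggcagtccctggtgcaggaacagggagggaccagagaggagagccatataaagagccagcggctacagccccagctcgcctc
Car9, chr4:43506776-43507075, plus strand: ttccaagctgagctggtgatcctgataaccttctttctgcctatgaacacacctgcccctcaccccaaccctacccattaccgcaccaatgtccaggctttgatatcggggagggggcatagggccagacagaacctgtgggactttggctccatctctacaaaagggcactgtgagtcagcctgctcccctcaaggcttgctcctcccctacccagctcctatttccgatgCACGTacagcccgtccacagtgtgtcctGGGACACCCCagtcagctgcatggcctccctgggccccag

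The capitals mark every match on either strand to 4 motifs, with no overlap between matches. The Gfap window held 1 match to the STAT motif TTCNNNGAA, which 8.30% of 32851 RefSeq mouse promoters of this length hold. Lcn2 and C3 each held 1 match to the C/EBP motif TTGCNNAA, found in 10.8% of promoters. Car9 held 1 match to the hypoxia response element core ACGTG, which 19.6% of promoters hold, on the minus strand and so printed as CACGT. It also held 1 match to the kappa-B motif, present in 8.46%. These matches describe the letters of the windows and show neither binding nor use of a site.

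The score behind the choice ran from 2000 to 14091 UMIs per 1000000 in the reactive astrocyte spots of library 3, with a median of 3335. In library 4 it ran from 1784 to 11980, with a median of 3314. Other spots had a median of 309 and 223. The spots just inside and just outside the top 15% scored 1992 and 1981 in library 3, and 1784 and 1779 in library 4, so the limit cuts a continuous range.

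Gfap was at 1095 and 1378 CPM in the reactive astrocyte spots of libraries 3 and 4 and at 211 and 229 CPM in other spots. Lcn2 was at 2295 and 1865 CPM against 142 and 83.5 CPM. C3 was at 459.8 and 360.5 CPM against 33.5 and 18.9 CPM, and Car9 at 339 and 228 CPM against 24.1 and 13.1 CPM. These levels follow from the rule and are given as a description. Lcn2 made up 54.8% and 48.7% of the score's UMIs, Gfap 26.1% and 36.0%, C3 10.98% and 9.41%, and Car9 8.10% and 5.95%, so the score is mainly Lcn2 with Gfap. Every reactive astrocyte spot had a Gfap UMI, and Lcn2 was at 0 in 1 of 112 and 4 of 93 spots. Car9 was the sparsest, at 0 UMIs in 20 and 32 spots.

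**Figure D1:**
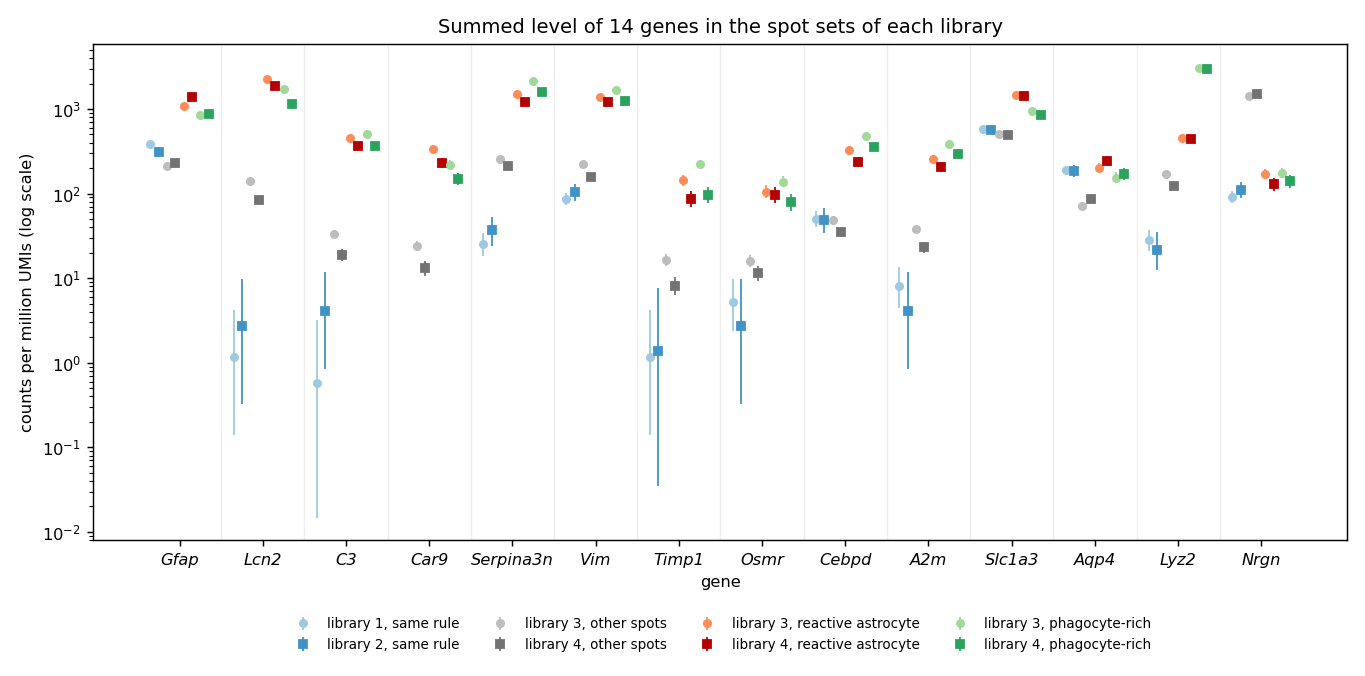
Levels of 14 genes in 8 sets of spots, in CPM on a log axis, with exact 95% Poisson intervals for counting error as bars. The sets are reactive astrocyte, other and phagocyte-rich spots of libraries 3 and 4 and the same rule in libraries 1 and 2, and Car9, at 0 UMIs in the latter, is not drawn there. Lcn2 in reactive astrocyte spots sits at 2295 and 1865 CPM, above its 1740 and 1142 CPM in phagocyte-rich spots, whereas Lyz2 is far higher in the latter. Lcn2 is part of the score and Lyz2 of the exclusion, so both directions follow at least in part from the rule.

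The phagocyte filter removed much of the tissue with the highest scores. Of the 194 and 141 spots in the top 15% by score, 82 (42.3%, Clopper-Pearson 95% interval 35.2 to 49.6%) and 48 (34.0%, 26.3 to 42.5%) were also phagocyte-rich and were left out. The 6 phagocyte genes were below the limit in the spots that remained but not absent. Lyz2, the lysozyme of myeloid cells, was at 459 and 446 CPM in reactive astrocyte spots, 169 and 123 CPM in other spots and 3079 and 2991 CPM in phagocyte-rich spots. Gpnmb, a glycoprotein of lipid-laden phagocytes, was at 247 and 190 CPM, against 46.9 and 29.7 CPM in other spots. Lying outside the phagocyte-rich set therefore means below a limit, not free of phagocyte transcripts. How far phagocytes took part in the differences described below was not tested.

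The rest of the transcriptome was compared with other spots first. Genes with at least 100 UMIs in each library over both sets numbered 9997, of which 294 (2.94%) were higher and 327 (3.27%) lower in reactive astrocyte spots past 2-fold in both libraries. Only 2 genes were past 2-fold in opposite ways, and the median log2 ratio of all genes was -0.08 in library 3 and -0.07 in library 4. A call in 1 library alone would give 490 higher and 543 lower genes in library 3, or 440 and 586 in library 4. In bulk sums such as these, fewer cells of a type and less RNA per cell cannot be told apart.

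The 15 genes highest over other spots had ratios of at least 4.86-fold in the library nearer to 1. Timp1, an inhibitor of matrix metalloproteinases, was at 143 CPM in library 3 and 86.3 CPM in library 4, against 16.4 and 8.14 CPM in other spots. Its ratios were 8.75-fold (95% interval 7.04 to 10.9) and 10.6-fold (7.54 to 14.95). Rarres2, the precursor of the chemoattractant chemerin, was 7.28-fold and 10.03-fold higher, at 219.7 and 219 CPM. Both were therefore several times higher in each library, with intervals far from 1.

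Among them were a transcription factor and receptors. Cebpd, a C/EBP transcription factor of the acute phase response, was 6.84-fold and 6.87-fold higher, at 330.3 and 238 CPM against 48.3 and 34.7 CPM. Osmr, the receptor subunit of oncostatin M, was at 105 and 96.5 CPM against 16.1 and 11.4 CPM, 6.52-fold and 8.45-fold higher. S1pr3, a receptor for sphingosine 1-phosphate, was 7.47-fold and 5.57-fold higher.

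The strongest transcripts of the group by level were Serpina3n and Vim. Serpina3n, a serine protease inhibitor of the acute phase response, was at 1490.1 and 1207 CPM against 257 and 211 CPM in other spots, 5.800-fold and 5.71-fold higher. Vim, the intermediate filament vimentin, was at 1383 and 1198 CPM against 223 and 159 CPM, 6.19-fold and 7.56-fold higher. Another protease inhibitor, A2m (alpha-2-macroglobulin), was 6.802-fold and 8.78-fold higher. The same group held Aqp1, a water channel, at 6.84-fold and 6.81-fold, and Chil1, a secreted chitinase-like protein, at 5.08-fold and 5.74-fold. Slc1a5, a carrier of neutral amino acids, was 4.900-fold and 5.01-fold higher. Rflna, Spidr and Prss35 were also among the 15, between 4.86-fold and 6.602-fold.

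**Figure D2:**
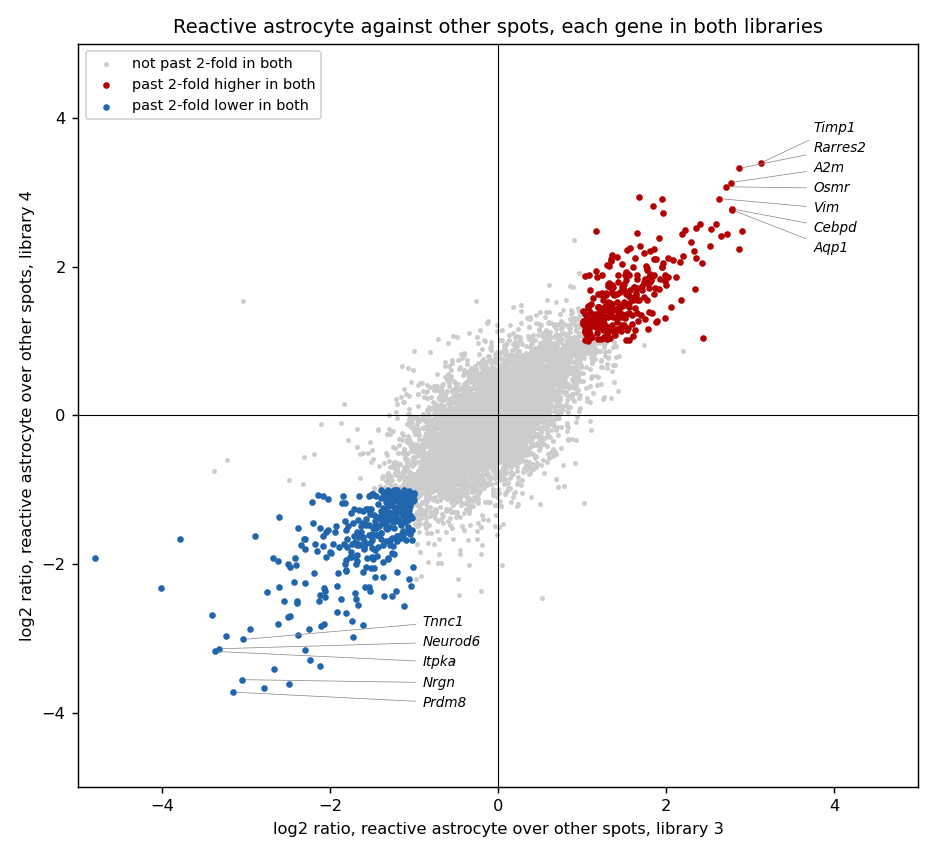
Log2 ratio of reactive astrocyte spots to other spots for each of 9997 genes, library 3 on the horizontal and library 4 on the vertical axis, with the 10 genes of the rule left out. Red points are the 294 higher and blue points the 327 lower genes past 2-fold in both libraries. The labelled genes are the 7 highest and 5 lowest by the library nearer to 1, with Timp1 at the upper right.

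Of the 14 genes of the pan-reactive list, 9 had enough UMIs, and 8 of them were higher, a share to be read beside the 2.94% of all genes. Their median log2 ratio was 2.63 and 2.73, against -0.08 and -0.07 for all genes. Hspb1, a small heat shock protein, was not past 2-fold, at 1.31-fold and 1.95-fold. The 5 members below the minimum were Cd44, Steap4, Cxcl10, Socs3 and Nes. Socs3, the feedback inhibitor of STAT3 signalling, had 65 and 29 UMIs in reactive astrocyte spots, 53.3 and 29.8 CPM against 8.24 and 5.39 CPM. Steap4, a metalloreductase, had 121 and 55 UMIs and was at 99.2 and 56.5 CPM against 8.24 and 5.52 CPM. None of the 5 was counted.

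In the inflammatory list 7 of the 10 measured genes were higher, beside 2.94% of all genes, with a median log2 ratio of 1.51 and 1.99. Ggta1, a galactosyltransferase, was 7.28-fold and 4.69-fold higher. Gbp2, a guanylate-binding protein induced by interferon, was 3.17-fold and 7.67-fold higher. Fkbp5, Amigo2 and H2-T23 were not past 2-fold in both. The list of genes reported after ischaemia had 3 of its 12 genes measured, and only Tm4sf1 was called, at 5.34-fold and 4.13-fold. The ischaemic list therefore could not be judged as a group at this depth.

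Genes of interleukin-6 family signalling were higher at the receptor for oncostatin M and at the transcription factors. Of 9 measured genes 4 were higher, Osmr, Stat3, Cebpb and Cebpd, beside 2.94% of all genes. Stat3 was at 189 and 170.5 CPM against 71.8 and 63.6 CPM, 2.64-fold and 2.68-fold. Il6st, the shared receptor subunit gp130, was at 1.54-fold and 1.61-fold and was not called, nor was Lifr at 1.05-fold and 1.48-fold. Il6 itself had no UMI in reactive astrocyte spots, and 3 UMIs there would be 2.46 and 3.08 CPM.

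Homeostatic genes of astrocytes were higher as well, by less. Of 19 genes, all measured, 9 were higher, beside 2.94% of all genes. The other 10 were not past 2-fold in both libraries and none was lower, with medians of 0.97 and 1.05 for the list. Slc1a3, the glutamate transporter GLAST, was at 1483 and 1412 CPM against 504 and 495 CPM, 2.94-fold and 2.85-fold. Aqp4, the water channel of astrocyte endfeet, was 2.87-fold and 2.81-fold higher. Sox9, a transcription factor of astrocytes, was 2.65-fold and 2.87-fold higher. Slc1a2, the other main glutamate transporter (GLT-1), stood apart at 1.12-fold and 1.01-fold, and Aldoc, an aldolase of astrocytes, was at 1.28-fold and 1.32-fold. The astrocyte part of the label is thus matched by general astrocyte genes that the rule did not use. Of the reactive astrocyte spots, 58 of 112 (51.8%, Clopper-Pearson 95% interval 42.1 to 61.3%) and 44 of 93 (47.3%, 36.9 to 57.9%) also lay in their library's top 15% by 5 homeostatic genes.

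**Figure D3:**
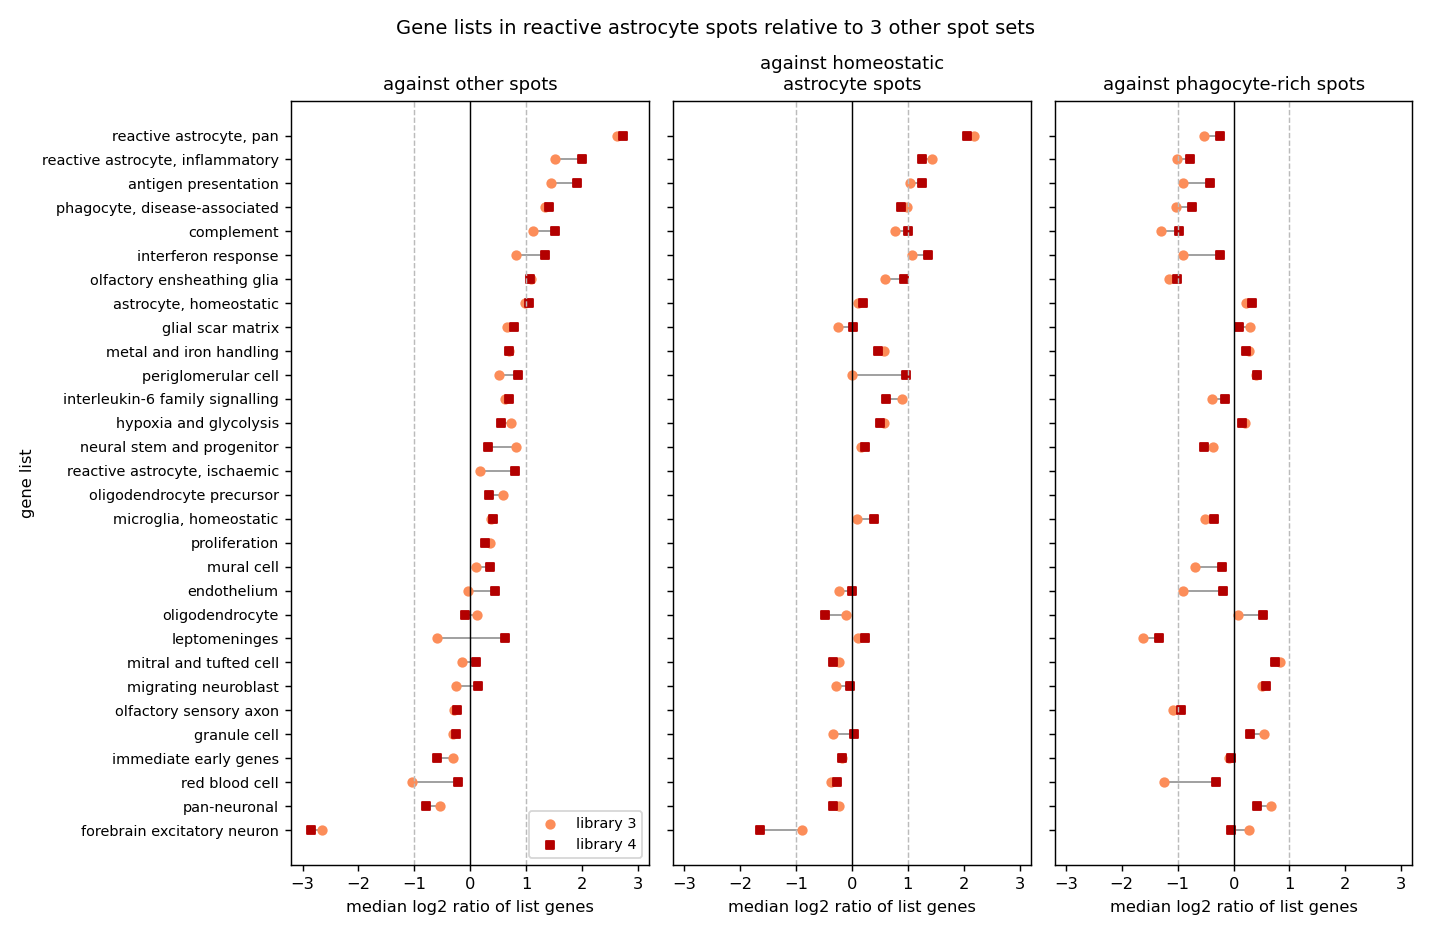
Median log2 ratio of the measured genes of each list with at least 3 such genes, for libraries 3 and 4, in reactive astrocyte spots against other spots, homeostatic astrocyte spots and phagocyte-rich spots (3 panels). The solid line is no difference and the dashed lines are 2-fold either way. The pan-reactive list is at 2.63 and 2.73 over other spots and the forebrain excitatory neuron list at -2.65 and -2.84.

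Matrix genes of the glial scar were divided. Of 10 measured genes 4 were higher, beside 2.94% of all genes. Among them were Thbs2, a matricellular thrombospondin, at 5.08-fold and 4.33-fold, and Sparc, a matricellular protein, at 3.54-fold and 3.54-fold. Fn1 and Ptprz1, the latter a proteoglycan gene, were higher as well. The proteoglycan genes Ncan, Bcan, Vcan and Cspg5 were not past 2-fold in both libraries.

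VEGF is the factor that the study blocked during development, and Vegfa was among the hypoxia genes that were higher. It was at 405 and 343 CPM in reactive astrocyte spots against 134 and 114 CPM in other spots, 3.01-fold and 2.998-fold. With it Pfkfb3, Egln3, Adm and P4ha1 made 5 of 19 measured hypoxia and glycolysis genes, beside 2.94% of all genes. Adm, the vasodilator peptide adrenomedullin, was 4.45-fold and 4.15-fold higher. The glycolytic enzyme Ldha was at 1.698-fold and 1.63-fold and Pgk1 at 1.597-fold and 1.45-fold, below the 2-fold limit. Slc2a1, the glucose transporter GLUT1, was at 1.72-fold and 1.51-fold. The list's medians were 0.72 and 0.56, and the other 14 genes were not past 2-fold in both libraries.

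Metal-binding genes were high in absolute level. Mt1, a metallothionein that binds zinc and copper, was at 9105 and 9184 CPM against 3011 and 3124 CPM, 3.02-fold and 2.94-fold. Mt2 was 4.05-fold and 3.64-fold higher and Cp, the copper ferroxidase ceruloplasmin, 3.87-fold and 6.62-fold. These 3 of 10 measured genes were called, beside 2.94% of all genes. Trf, which encodes transferrin and stands in the oligodendrocyte list, was at 622 and 614 CPM, 3.85-fold and 3.98-fold higher. Slc22a17, reported as a receptor for lipocalin 2, was not higher, at 404 and 425 CPM against 538 and 554 CPM in other spots.

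Complement and antigen presentation genes were higher too. The counts of this paragraph are to be read beside the 2.94% of all genes that were higher. Of 9 measured complement genes 6 were called, C1qa, C1qb, C1qc, C4b, Serping1 and Cd59a, with medians of 1.12 and 1.52. C4b, the fourth complement component, was at 432 and 409.8 CPM against 167 and 134 CPM, 2.59-fold and 3.07-fold. C1qa, a subunit of C1q that myeloid cells make, was 2.28-fold and 3.097-fold higher. Of 10 measured antigen presentation genes 8 were called, with medians of 1.44 and 1.91. The class I heavy chain H2-K1 was 3.04-fold and 3.99-fold higher and Cd74, the invariant chain of class II, 3.604-fold and 4.701-fold. In the interferon list 3 of 8 were called, with Ifitm3 at 3.22-fold and 4.85-fold.

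Phagocyte genes moved with these groups. Of the 14 measured genes of the disease-associated phagocyte list 11 were higher, beside 2.94% of all genes, with medians of 1.34 and 1.41. The summed level of its 19 genes was 14363 and 14252 CPM, against 5832 and 5267 CPM in other spots and 27733 and 25051 CPM in phagocyte-rich spots. No gene of that list was at 0. The part of phagocytes in the complement, antigen presentation and interferon differences was not tested. Of 9 measured genes of homeostatic microglia none was called in either direction. P2ry12, the purinergic receptor of resting microglia, was at 18.03 and 23.6 CPM against 20.3 and 19.2 CPM. The medians of the 9 genes were 0.37 and 0.40. The summed level of the list's 11 genes was 456 and 540.2 CPM against 353 and 346 CPM, a ratio of 1.29 (interval 1.18 to 1.41) and 1.56 (1.42 to 1.72).

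The genes lowest in reactive astrocyte spots were mostly those of forebrain excitatory neurons. Of 10 such list genes, all measured, 8 were lower, beside 3.27% of all genes, with medians of -2.65 and -2.84. Nrgn, the calmodulin-binding protein neurogranin, was at 172 and 128 CPM against 1429 and 1518 CPM, 8.301-fold and 11.8-fold lower. Itpka, a kinase of dendritic spines, was 10.7-fold and 9.37-fold lower. The transcription factor Neurod6 had 5 and 5 UMIs in reactive astrocyte spots, so its ratios rest on few molecules. Prdm8, Bhlhe22, Tnnc1 and Mal2 were also among the 10 lowest. The summed level of this list was 3568 and 3729 CPM in other spots, 1518 and 1978 CPM in homeostatic astrocyte spots and 1020.5 and 938 CPM in reactive astrocyte spots. The lowest 10 also held Bpifb6 and Ces1d, the former a gene of the BPI-fold family at 13.1 and 27.7 CPM against 105 and 207 CPM.

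Few genes of the neurons of the bulb itself were called. The pan-neuronal list had medians of -0.54 and -0.80, with Rbfox3 lower and 9 genes not past 2-fold. In the granule cell list 1 of 10 genes, Pcp4, was lower, and in the migrating neuroblast list 1 of 11, Stmn2. With 3.27% of all genes lower, 1 call in a list of this size is not read as a result about the list. In the mitral and tufted cell list Eomes was higher and Tbr1 and Uchl1 lower, of 9. In the periglomerular cell list Trh was higher and Calb1 lower, of 4, and Th and Calb2 were not past 2-fold in both libraries. Trh, the thyrotropin-releasing hormone precursor made by glomerular layer cells, was at 134 and 153 CPM against 34.8 and 36.9 CPM. Of all genes 2.94% were higher and 3.27% lower, so these calls are not read as a result about the list.

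Other glia and vessels gave a mixed picture. The oligodendrocyte list was near 0, with medians of 0.13 and -0.10, and Mbp, myelin basic protein, was at 534 and 644 CPM against 892 and 1084 CPM. Genes of olfactory ensheathing glia had medians of 1.09 and 1.07, with Apod, Fabp7 and Fbln2 higher among 7, beside 2.94% of all genes. The summed ensheathing glia level was 3940 and 4099 CPM, against 2024 and 1811 CPM in other spots, and its part in the results was not tested. No endothelial or mural cell gene was called. The leptomeningeal list went opposite ways, -0.59 in library 3 and 0.61 in library 4. Of the neutrophil list, S100a8 and S100a9 had enough UMIs and neither was called, while Ly6g, Retnlg and Elane were at 0 UMIs. No gene of the lymphocyte or border macrophage lists reached the minimum, and their summed levels were 22.1 and 33.9 CPM and 76.2 and 67.8 CPM.

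The genes most like the score over all kept spots of libraries 3 and 4 were ranked by the mean of Spearman's rho in each library, over 1296 and 943 spots. The 1861 genes ranked had 1000 UMIs or more in each. Mt1 came first, at 0.73 and 0.70, followed by Apoe, the lipid carrier of astrocytes and phagocytes, at 0.69 and 0.68. Dbi, Vim, Serpina3n, Mt2, Sparc, Prdx6, Apod and Cst3 completed the 10, down to 0.56. Spots of a library share their sequencing depth and tissue, so these values are descriptions without a p-value.

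To see whether the chosen spots were the end of a gradient, the spots outside the phagocyte-rich set were ordered by score and divided into deciles. In the top decile, 112 of 116 spots of library 3 and 84 of 84 spots of library 4 were reactive astrocyte spots. Serpina3n was at 95.05 CPM in the lowest decile of library 3, 226 CPM in the fifth, 665 CPM in the ninth and 1458 CPM in the top decile. In library 4 it was at 114, 209, 581 and 1230 CPM. Most of the increase thus lay in the upper deciles, with the largest step into the last. Vim went from 70.5 and 66.96 CPM to 594 and 458 in the ninth decile and 1364 and 1238 in the last. Slc1a3 had a shallower course, from 430.2 and 316 CPM to 1458 and 1442 CPM. Apod was not monotone in library 3, with 2427 CPM in the eighth decile and 2189.7 CPM in the last. Nrgn ran the other way, from 2381 and 2568 CPM in the lowest decile to 170.1 and 119.5 CPM in the top one. The 6 phagocyte genes were also higher along the order, from 138 and 112 to 1136 and 934 CPM in sum.

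**Figure D4:**
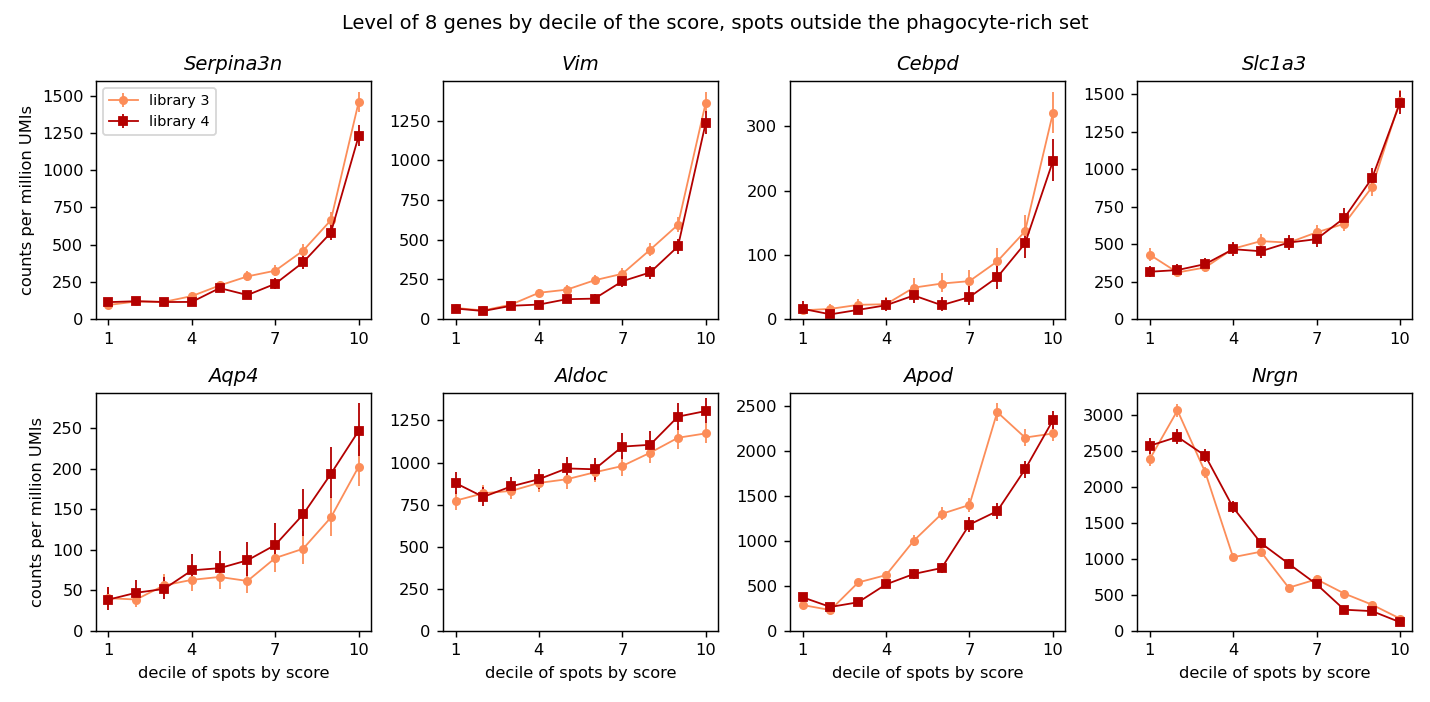
Levels of 8 genes, in CPM on axes that start at 0, in deciles of the score among spots outside the phagocyte-rich set, for libraries 3 and 4, with exact 95% Poisson intervals. Serpina3n climbs from 95.05 to 1458 CPM in library 3 while Nrgn ends at 170.1 CPM.

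Against the phagocyte-rich spots, nearly all calls were of genes lower in reactive astrocyte spots. Of 3879 genes with enough UMIs, 2 (0.0516%) were higher and 87 (2.24%) lower in both libraries. In library 3 alone the counts would be 49 and 173, and in library 4 alone 12 and 121. The 2 higher genes were Coro6, a coronin, at 2.86-fold and 2.36-fold, and Grin2c, a glutamate receptor subunit that astrocytes express, at 2.33-fold and 2.06-fold. By the library nearer to 1, the next 6 genes, Ttll7, Ptprt, Tmem163, Ly6h, Nptx1 and Syn1, lay below 2-fold.

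Of the 8 lowest genes against phagocyte-rich spots, Bpifb6 was at 13.1 and 27.7 CPM against 165 and 270.1 CPM, 12.6-fold and 9.74-fold lower. Gpx6, an olfactory glutathione peroxidase, was 9.49-fold and 8.16-fold lower and Cyp2a5, an olfactory cytochrome, 7.25-fold and 4.52-fold. Scgb1c1, Bpifb4, Vmo1, Inmt and Postn were the other 5. Of the phagocyte list, whose genes the exclusion resembles, Trem2, Tyrobp, Cd68, Ctsd and Ctss were lower, 5 of 14. Of the leptomeningeal list 6 of 9 were lower and of the ensheathing glia list 4 of 7. These counts stand beside 2.24% of all genes.

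Of the phagocyte-rich spots, 82 of 130 (63.1%) and 48 of 94 (51.1%) were themselves in the top 15% by score, so both sets hold tissue with high Gfap and Lcn2. No gene of the pan-reactive list was past 2-fold against phagocyte-rich spots in both libraries, with medians of -0.53 and -0.24. Serpina3n was at 2142 and 1580.3 CPM in phagocyte-rich spots, above the 1490.1 and 1207 CPM of reactive astrocyte spots. Vim was at 1656 and 1248 CPM against 1383 and 1198 CPM, and Vegfa at 410.5 and 364 CPM against 405 and 343 CPM. Of 19 homeostatic astrocyte genes none was called, with medians of 0.23 and 0.33 beside 0.11 and 0.08 for all genes. Slc1a3 was at 1.56-fold and 1.66-fold in reactive astrocyte spots and Slc1a2 at 1.51-fold and 1.55-fold, below the limit of 2-fold. Serping1, the C1 inhibitor, was 2.54-fold and 2.23-fold lower.

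The homeostatic astrocyte spots gave a comparison between tissue rich in astrocyte transcripts with and without the reactive score. Their 5 defining genes left aside, 64 of 3640 genes (1.76%) were higher in reactive astrocyte spots and 8 (0.22%) lower. In library 3 alone the counts would be 138 and 16, and in library 4 alone 87 and 37. Of the pan-reactive list 6 of 6 measured genes were higher, with medians of 2.18 and 2.06. Osmr was 4.74-fold and 8.82-fold higher, Aqp1 4.87-fold and 4.65-fold, and Cp 4.57-fold and 6.13-fold. Rarres2, Cebpd, A2m, Vim and S1pr3 were the other 5 of the 8 highest. All but Cp also stood among the 15 highest against other spots, a comparison that uses the same reactive astrocyte values.

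The remaining 14 measured homeostatic astrocyte genes were not past 2-fold in both libraries in either direction, with medians of 0.12 and 0.19. Glul, glutamine synthetase, was at 1680.3 and 1786 CPM against 1536 and 1626 CPM, and Mlc1, a membrane protein of astrocyte endfeet, at 550 and 538 CPM against 449 and 425 CPM. None of these 14 genes thus set the reactive astrocyte spots apart by 2-fold in both libraries. The comparison spots were themselves chosen by astrocyte genes, so like levels were in part built in. The 8 lower genes included Mobp, Mbp, Stx1a, Jph4, Camk2a, Nrgn and Spock1. Mbp was at 534 and 644 CPM against 1455 and 1713 CPM, 2.73-fold and 2.66-fold lower. Of 7 measured antigen presentation genes 5 were higher, and of 11 phagocyte genes Ctsb and Cd52, beside 1.76% of all genes. Vegfa was 1.84-fold and 2.203-fold higher and was not called.

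The same rule in libraries 1 and 2 found spots with another makeup of the score. Their Gfap was at 390.2 and 309 CPM, but Lcn2 had 2 and 2 UMIs, C3 1 and 3, and Car9 none in either library, so nearly all of the score there was Gfap. On those few UMIs, Lcn2 in library 3 was 1982-fold its level in library 1 (counting interval 548 to 16374) and 844-fold that in library 2 (234 to 6975). In library 4 the ratios were 1611-fold (445 to 13310.1) and 686-fold (189.7 to 5669.8). Car9 was at least 195-fold higher in library 3 than in library 1 and at least 83.2-fold higher than in library 2, taking 3 UMIs per library as the floor. In library 4 the corresponding bounds were 131-fold and 55.9-fold. Lcn2 and Car9 are among the genes that chose the spots, so these ratios follow in part from the rule and are a description. Fewer of those spots were rich in homeostatic genes, 18.03% and 23.5% in the top 15%, and phagocyte-rich spots made up 6.43% and 8.41% of their top 15% by score.

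Among 3555 genes with enough UMIs, 131 (3.68%) were higher in the reactive astrocyte spots of both libraries 3 and 4 than in both libraries 1 and 2, and 28 (0.788%) were lower. With library 3 alone the lower genes would number 55, and with library 4 alone 46. Serpina3n had the widest difference, at 1490.1 and 1207 CPM against 25.5 and 36.7 CPM. A2m was at 257 and 205 CPM against 8.11 and 4.08 CPM, and C4b at 432 and 409.8 CPM against 19.1 and 28.5 CPM. Vim was at 86.8 and 103 CPM in libraries 1 and 2. Cd52, a surface glycoprotein of leukocytes, Cd74, Rarres2 and Ier3, an early stress response gene, were the other 4 of the 8 highest.

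Against libraries 1 and 2, where 3.68% of all 3555 genes were higher, the higher genes included all 4 measured pan-reactive genes, all 5 complement genes and all 5 antigen presentation genes. Of 11 phagocyte genes 8 were higher, with summed list levels of 5941 and 5894 CPM in libraries 1 and 2. Of 14 hypoxia and glycolysis genes 5 were higher, Vegfa, Ldha, Pfkl, Bnip3 and P4ha1, with Vegfa at 59.6 and 51.6 CPM. Of 19 homeostatic astrocyte genes 3 were higher, Slc1a3, Sox9 and Cldn10. In other spots the pan-reactive list summed to 703 and 526 CPM in libraries 3 and 4, against 196 and 173 CPM in libraries 1 and 2. The complement list there was at 729 and 572 CPM against 316 and 301 CPM. The antigen presentation list was at 771 and 574 CPM against 424 and 401 CPM. The direction of these list differences was thus not particular to the reactive astrocyte spots.

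The lower genes included several of the bulb's own interneurons. Th, the rate-limiting enzyme of dopamine synthesis, was at 187 and 237 CPM against 884 and 783 CPM, and Trh at 134 and 153 CPM against 454 and 410.4 CPM. With Calb2, 3 of 3 measured periglomerular genes were lower, beside 0.788% of all genes. The summed level of the list's 8 genes was 873 and 997 CPM, against 2837 and 2490 CPM in libraries 1 and 2. Other spots differed the same way, at 664 and 660 CPM in libraries 3 and 4 against 1832 and 1600 CPM in libraries 1 and 2. The difference was thus not particular to the reactive astrocyte spots. Trh was thus higher in reactive astrocyte spots than in other spots of their own library and lower than in the spots of the same rule in libraries 1 and 2. Gad2, a GABA-synthesizing enzyme, was at 158 and 152 CPM against 402 and 375 CPM, and Nppa, Nrsn1, Fosl2, Me3 and Nap1l5 were the other lower genes named by rank. Because the libraries match no label, the mouse, the section and the capture area behind these differences cannot be told apart.

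The reactive astrocyte spots also varied among themselves. Lcn2 had the most UMIs of the 4 score genes in 92 of 112 spots of library 3 and 56 of 93 spots of library 4, and Gfap in 16 and 32. Ties made up 4 and 4 spots, and C3 led in 0 and 1. The Lcn2-led and Gfap-led spots were of like depth, with medians of 10888.5 and 10983 UMIs in library 3 and 10604.5 and 10811.5 in library 4. Since the score genes sort these spots, the other genes of these sums are described without a test.

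Pan-reactive genes summed to 4275 and 3687 CPM in Lcn2-led spots and to 2989.9 and 3006 CPM in Gfap-led spots. Homeostatic astrocyte genes summed to 9989.7 and 10432 CPM against 9723 and 10327 CPM. The score genes that chose the spots also made this division, so these sums are a description. Car9 was at 355 and 262 CPM against 237 and 159.6 CPM. Dcx, the microtubule protein of migrating neuroblasts, was at 77.1 and 81.3 CPM in Gfap-led spots against 43.96 and 41.01 CPM in Lcn2-led spots. Leptomeningeal and red blood cell sums were higher in Lcn2-led than in Gfap-led spots of both libraries. The leptomeningeal sum was 5379.7 and 6418 CPM against 3215 and 5096 CPM. The red blood cell sum was 795 and 1455 CPM against 409 and 607 CPM, and its part in these differences was not tested.

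Spot by spot, the 4 score genes had low correlations. In spots thinned to 2000 UMIs, 109 in library 3 and 91 in library 4 after leaving out 3 and 2 shallower ones, Spearman's rho of Lcn2 with Gfap was 0.19 and 0.10, with Car9 0.24 and 0.20 and with C3 0.13 and 0.03. Gfap with C3 was at 0.09 and 0.15, Gfap with Car9 at 0.15 and -0.08, and C3 with Car9 at 0.25 and 0.07. In the same spots the rho of Lcn2 with the pan-reactive list was 0.38 and 0.46. With the leptomeningeal list it was -0.16 and 0.12, and with the red blood cell list -0.03 and 0.05. With counts this sparse and with spots chosen on the sum of the 4 score genes, no relation is read from these values.

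The reactive astrocyte spots of libraries 3 and 4 differed in a few genes. Cxcl10, a chemokine induced by interferon, had 35 and 93 UMIs, 28.7 and 95.5 CPM. Tnc, the matrix protein tenascin C, had 57 and 11 UMIs, 46.7 and 11.3 CPM. These genes were picked after their values were seen, and with 2 libraries of unknown label there is no spread to judge the differences by.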

How the data were processed

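Visium libraries of olfactory bulb sections were analysed from the authors' deposited matrix of whole-number UMI counts per gene and spot, and, per the file headers, came from Space Ranger 1.3.1. The submitters' processing notes name GRCm39, while read filters and annotation are not stated in the material used here. The reference name table held 32158 of the 32285 gene identifiers. Promoter windows come from RefSeq on GRCm38.p6, so that no coordinate of the matrix is printed.

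Spots with at least 500 UMIs were kept and assigned to a library by their barcode number. UMIs were summed over the spots of a set within a library and scaled to CPM. Levels have exact Poisson intervals, ratios exact conditional binomial intervals and shares Clopper-Pearson intervals, which cover counting error only. A gene was called when its log2 ratio, with a prior count of 0.5, was past 2-fold the same way in both libraries, among genes with at least 100 UMIs in each library over the sets compared. In the comparison with libraries 1 and 2, all 4 pairs of libraries had to pass. The 10 rule genes, and the 5 homeostatic genes where they defined a set, were left out of the counts. Printed ratios use no prior count. No p-value is given, since spots are not replicates and each mouse is 1 animal. Python 3.11.15 with numpy 2.4.6, scipy 1.17.1 and pandas 2.3.3 was used. The 34 lists hold 388 genes, of which 387 have a row.

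Named genes are the 15 highest and 10 lowest called genes against other spots, the 8 highest and 8 lowest of each other comparison by the library nearer to 1, the 10 genes most correlated with the score, and list members. The values of some genes named by these rules are not reported here. Cxcl10 and Tnc were singled out after their values were seen. The spots, the lists and the rules were chosen with earlier results of these data known. Leaving the rule genes out of the counts, the score deciles, the genes drawn in figures and the promoter motifs were chosen after a first look at the values. The calculations were tested on simulated data. The bound set for recovering lower genes was not met at first, and was loosened after that result was seen. Alternatives covered the score and exclusion limits, each score gene, spot and gene minimums, the scaling, spot weights and each library alone.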

Additional observations from a re-analysis of the deposited data

How the results depend on the processing

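No paired analysis was possible because the libraries match no label and no test between groups was made. Among 73 named gene ratios and 34 summed list levels, none past 2-fold in the main setting reversed its direction under 15 alternatives. Ratios nearer to 1, and those whose libraries disagreed in sign, could not be counted as reversed. Under the alternatives, 90 of 1095 gene values and 127 of 510 list values moved by more than their counting interval. Counts of called genes also moved, but by another measure, and are not compared with the ratios. They are given here as higher and lower genes against other, phagocyte-rich and homeostatic astrocyte spots and against the same rule in libraries 1 and 2. A minimum of 20 UMIs per gene, which tests more genes, gave 619 higher genes against other spots and 33 and 247 against phagocyte-rich spots. It gave 205 and 30 against homeostatic astrocyte spots and 364 and 85 against libraries 1 and 2. In that order, 13435, 10528, 10127 and 10033 genes were tested, against 9997, 3879, 3640 and 3555 in the main setting. A minimum of 300 UMIs gave 155 and 214, 0 and 24, 21 and 3, and 44 and 10. The genes tested then numbered only 5836, 1003, 938 and 902, so these counts are to be read beside those numbers. With no exclusion of phagocyte-rich spots there were 485 higher genes against other spots and 24 and 48 against phagocyte-rich spots. There were 163 and 18 against homeostatic astrocyte spots and 226 and 52 against libraries 1 and 2. In that setting the phagocyte-rich spots in the top 15% by score moved into the reactive astrocyte set. Both sets thus differed from the main ones. The genes tested numbered 10233, 3879, 4718 and 4786. Excluding the top 20% left 70 and 44 reactive astrocyte spots in libraries 3 and 4, of 112 and 93 in the main setting. With that limit there were 142 lower genes against phagocyte-rich spots and 21 higher genes against homeostatic astrocyte spots. There were 64 and 16 against libraries 1 and 2, and in these comparisons 4654, 2462 and 2334 genes were tested. The cause was not tested. The 2 genes higher than in phagocyte-rich spots became 0 with the top 10% by score, 13 with the top 25%, and 1 without C3, Car9 or Lcn2 in the score. The top 25% gave 135 lower genes there and 5 against homeostatic astrocyte spots, and a score without Lcn2 gave 4 of the latter. Requiring the call in library 3 or library 4 alone gave between 440 and 490 higher and 543 and 586 lower genes against other spots, 12 and 49 higher and 121 and 173 lower against phagocyte-rich spots, 87 and 138 higher and 16 and 37 lower against homeostatic astrocyte spots, and 142 and 196 higher and 46 and 55 lower against libraries 1 and 2. In libraries 1 and 2 a score without Gfap is 0 in nearly all spots, so that file order chose the spots there. Genes with few UMIs limit the counts, and intervals cover counting error only.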
